A study of Caenorhabditis elegans with 2 samples.

Results

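In 1 joint list the authors called 30000 regions on both libraries of an NHR-28 ChIP-seq experiment. Of these, 520 are described here. Each lay within 1000 bp of protein-coding transcript starts on 1 strand but not on both. Regions of that kind are called single-gene promoter regions, though 33 of the 520 had starts of more than 1 gene that near. Each of the 520 was in the list of each library, which keeps background, and 478 had a q-value above 0.05 in both. None passed the authors' reproducibility step. That step is the irreproducible discovery rate (IDR), and every peak that passed it had a higher signal in the joint list than any of the 520. NHR-28 is a nuclear hormone receptor of the nematode Caenorhabditis elegans, and chromatin immunoprecipitation followed by sequencing (ChIP-seq) recovers the DNA that lies near a protein in the cell. The labels name strain OP317, with the allele unc-119(ed3) on chromosome III and the transgene wgIs317, an insertion of tagged nhr-28, and give mixed-stage embryos of both sexes as the material. Biological replicates 1 and 2 form 1 group, each a library of 150 to 350 bp fragments made from whole animals. No untagged strain, other stage or other group was analysed here, every cell type of the embryo was pooled, the tag (eGFP) sits on a transgene whose promoter the labels do not name, and read totals are not given, so the depth of each library is unknown.

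The 520 regions were chosen by measured values. A region was taken when no IDR summit lay in it and its own summit (the position of highest signal) fell in a region of both replicate lists. An annotated protein-coding transcript also had to start within 1000 bp of that summit on 1 strand but not on both. The 5' ends are those of the annotation, and where transcription starts was not measured. Of 29762 pooled regions below IDR, 1195 were in both replicates, 715 of these had a protein-coding 5' end within 1000 bp, 561 had such ends on 1 strand, and 41 were left out because a tRNA or snoRNA gene lay within 500 bp. The 520 that remained were 4.42% of the 11767 single-gene promoter regions below IDR. That share follows from the selection itself. The other 11247 of these regions, 4595 of them in 1 replicate and 6652 in neither, met the same criteria except agreement of the replicates and are called the other promoter regions. Of the 238 peaks that passed IDR, 55 were single-gene promoter peaks by the same rule.

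Nuclear hormone receptors are transcription factors with a zinc-finger DNA-binding domain and a ligand-binding domain, and many of them recognise the letters AGGTCA or an extended form of them. The family is greatly expanded in nematodes. Promoters of C. elegans genes often lie upstream of the annotated first exon. Highly used promoters are often open in many cell types, where unrelated factors can be recovered together.

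The sequences at the summits of the strongest regions are shown first because they show the range of letters under them. Each is the 81 bases centred on the summit, read 5' to 3' on the strand of the nearest gene from the WBcel235 genome (build ce11), and each holds no annotated exon. Capitals mark the 6-letter words AGAGAC (word 1), GACGCA (word 2), ACGCAG (word 3) and GAGAGA, and the longer word GGTTCGA, on either strand. The strongest region, at chrIII:1601577-1601657 on the minus strand, lay 473 bp upstream of sms-3, which RefSeq describes as a putative sphingomyelin-type cholinephosphotransferase.
sms-3: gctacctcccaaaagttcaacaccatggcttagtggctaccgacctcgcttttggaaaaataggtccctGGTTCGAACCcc
The sequence at chrII:6973644-6973724, minus strand, belongs to sod-1, the copper/zinc superoxide dismutase.
sod-1: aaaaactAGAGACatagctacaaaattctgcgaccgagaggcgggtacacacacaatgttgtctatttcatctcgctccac
Those at chrIII:13070666-13070746, plus strand, and at chrX:17513631-17513711, plus strand, belong to Y39E4B.6, which RefSeq names after a Smad nuclear-interacting protein, and to the nuclear receptor gene nhr-1.
Y39E4B.6: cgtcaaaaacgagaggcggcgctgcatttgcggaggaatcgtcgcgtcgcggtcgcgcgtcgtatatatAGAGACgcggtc
nhr-1: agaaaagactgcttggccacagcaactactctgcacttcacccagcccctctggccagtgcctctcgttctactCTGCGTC
The sequence at chrV:3505889-3505969, minus strand, belongs to the UDP-glucuronosyltransferase gene ugt-64 and holds words 1 to 3 in an overlapping row.
ugt-64: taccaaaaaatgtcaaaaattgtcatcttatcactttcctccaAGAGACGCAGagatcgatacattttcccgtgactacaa
The sequences at chrIII:11774656-11774736 (plus strand, immp-1, an inner mitochondrial membrane peptidase), chrII:1320535-1320615 (plus strand, vig-1, an RNA-binding protein) and chrIII:1859698-1859778 (plus strand, ddp-1, a mitochondrial import protein) hold none of the words in this window.
immp-1: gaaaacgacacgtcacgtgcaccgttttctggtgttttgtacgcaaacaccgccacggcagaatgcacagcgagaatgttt
vig-1: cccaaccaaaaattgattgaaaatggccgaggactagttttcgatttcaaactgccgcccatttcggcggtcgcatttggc
ddp-1: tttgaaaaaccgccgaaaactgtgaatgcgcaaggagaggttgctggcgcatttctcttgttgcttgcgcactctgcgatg

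In the sms-3 sequence GGTTCGA overlaps its own reverse complement, so that a longer run stands in capitals. These are letters of the B box inside tRNA genes, and no tRNA or snoRNA gene was annotated within 500 bp of that summit. A match to GGTTCGA within 100 bp of the summit was present in 6 of the 520 regions (1.15%), against 1.92% of 1040 flank windows and 1.22% of the other promoter regions.

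Beside these stand 4 upstream regions with GAGAGA or its complement TCTCTC, the motif with the lowest p-value between summits and flanks, in capitals. They belong to ptrn-1 (chrX:17030618-17030698, minus strand), a microtubule-binding Patronin, sti-1 (chrV:773390-773470, plus strand), a co-chaperone of the heat shock proteins, F21C10.10 (chrV:9095811-9095891, plus strand) and slc-46A (chrIV:5318990-5319070, plus strand), a solute carrier.
ptrn-1: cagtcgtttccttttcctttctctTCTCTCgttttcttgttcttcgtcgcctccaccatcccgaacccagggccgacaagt
sti-1: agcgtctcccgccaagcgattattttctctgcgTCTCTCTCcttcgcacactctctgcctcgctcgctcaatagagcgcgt
F21C10.10: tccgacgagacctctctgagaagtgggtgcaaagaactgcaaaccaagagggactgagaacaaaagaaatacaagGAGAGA
slc-46A: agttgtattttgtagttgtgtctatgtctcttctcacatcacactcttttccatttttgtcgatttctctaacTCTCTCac
The next 2 show TTTCAG or its complement CTGAAA in capitals, a word that was less frequent at summits than in flanks. They belong to nrde-4 (chrIV:7654538-7654618, minus strand), a nuclear RNA interference gene, and dnj-9 (chrII:4851778-4851858, plus strand), a DnaJ-domain co-chaperone.
nrde-4: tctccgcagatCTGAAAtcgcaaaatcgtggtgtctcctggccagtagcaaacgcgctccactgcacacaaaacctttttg
dnj-9: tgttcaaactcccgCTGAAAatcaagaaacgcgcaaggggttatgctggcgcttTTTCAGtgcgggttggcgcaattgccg

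The 520 regions leaned towards the upper end of what stayed below IDR but did not fill it. They held 284 of the 1000 strongest regions below IDR. Each of the 520 was 324 bp wide. Their pooled signal, the authors' measure of strength against a control, ran from 14.02 to 56.1 with a median of 32.1 (quartiles 26.6 and 38.9), against a median of 16.5 and a highest value of 50.1 in the other promoter regions. The weakest IDR peak of any class had 56.4, and the strongest pooled region below IDR, at sms-3, had 56.1. Every IDR peak thus stood above every region below IDR in pooled signal. Signal was among the values that chose the 520 regions, so these differences are a description and carry no test. By rank in the whole pooled list they ran from 239 to 24495, with a median of 1084, and 490 of them were among the 5000 strongest regions below IDR. Of the 100 strongest single-gene promoter regions below IDR, 94 were found in both replicates. Of ranks 101 to 250 it was 69.3%, of ranks 251 to 500 it was 43.2%, of ranks 501 to 1000 it was 21.6%, and of ranks 1001 to 2000 it was 7.5%. Past rank 5000 it was 0.163%, or 11 of 6767 regions.

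**Figure D1:**
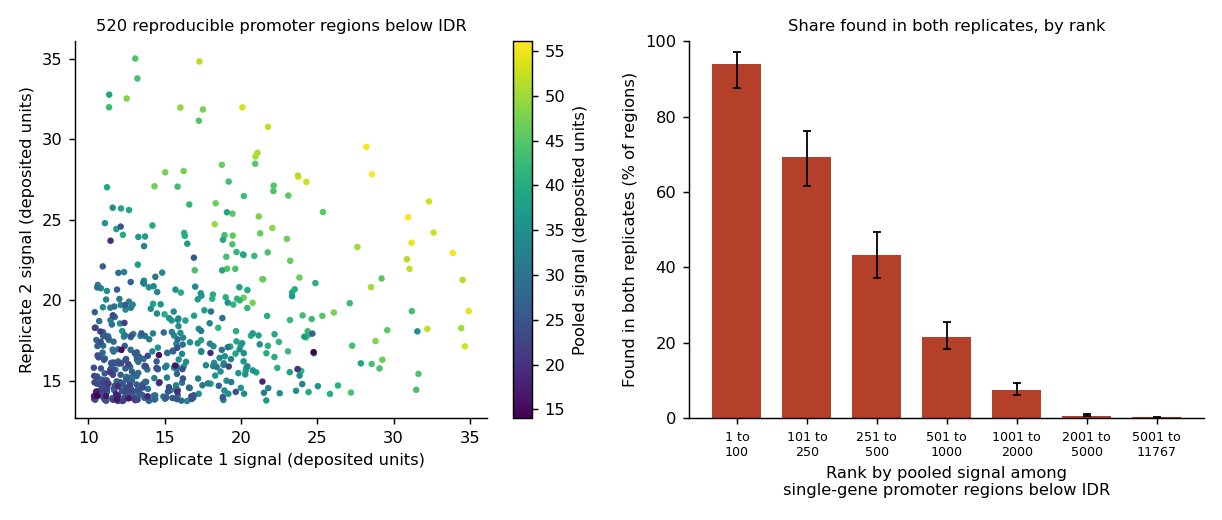
Left, replicate 2 signal against replicate 1 signal (both in the deposited units of their own list) for the 520 regions, coloured by pooled signal, with most points in the lower left corner. Right, the share of single-gene promoter regions below IDR found in both replicates by rank of pooled signal (bars, with Wilson 95% intervals), which was 94% in the first 100 and 0.163% past rank 5000.

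Replicate 1 signal ran from 10.35 to 34.9 with a median of 15.1, against 12.7 over all 14746 regions of that list. Replicate 2 signal ran from 13.76 to 35.01 with a median of 16.7, against 15.8 over its 4556 regions. The scale of each list is its own, so levels are not compared between lists. The authors' q-value was 0.05 or less in replicate 1 for 28 of the 520 (5.38%, against 2.37% of all replicate 1 regions) and in replicate 2 for 15 (2.88%, against 5.18% of all replicate 2 regions). Both lists were part of the selection, so nothing is read from these shares. The region of Y39E4B.6 passed in both, with q-values of 0.0452 and 0.0304, and 478 regions passed in neither. Across the 520 regions the signals of the replicates had Pearson's r = 0.246 and Spearman's rho = 0.293. These points share the requirement of a region in both lists and of no IDR summit, and 515 distinct regions of each list stand behind them. Within the 100 strongest by pooled signal r was -0.553, within the 100 weakest 0.0136, and over 54 of the IDR single-gene promoter peaks 0.601. Pooled signal, by which these were ranked, comes from both libraries, and its part in these values was not tested.

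The 25 strongest regions lay near genes of many kinds, and 21 of their summits were upstream of the 5' end. The region of sms-3 had a pooled signal of 56.1, with 28.6 in replicate 1 and 27.8 in replicate 2. That of F54D5.7, a putative glutaryl-CoA dehydrogenase per RefSeq, had 55.6 pooled, with 30.95 in replicate 1 and 25.2 in replicate 2, its summit 27 bp upstream. That of sod-1 had 55.4 pooled, with 33.9 in replicate 1 and 22.9 in replicate 2. All 3 had a q-value of 0.05 or less in replicate 1 and none of them had one in replicate 2. The region of immp-1 had 55.3 pooled, with 23.8 in replicate 1 and 27.7 in replicate 2, and that of Y39E4B.6 had 55.1 pooled, with 28.2 in replicate 1 and 29.5 in replicate 2. That of nhr-1, the strongest at a nuclear receptor gene, had 54.8 pooled, with 31.2 in replicate 1 and 23.6 in replicate 2.

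Transcription and chromatin genes followed. The summit of mdt-26, a Mediator subunit, lay in an intron 771 bp inside the gene, with 54.3 pooled, 34.9 in replicate 1 and 19.3 in replicate 2. That of let-526, an ARID-domain protein, lay 869 bp inside the gene with 53.6 pooled and was strong in the other library, with 20.1 in replicate 1 and 31.98 in replicate 2. That of drap-1, a histone-fold protein, was at 52.7 pooled, with 32.6 in replicate 1 and 24.2 in replicate 2. Signalling and cytoskeletal genes among the 25 were mrck-1, a serine/threonine kinase, with a pooled signal of 53.1, egl-30, the Gq alpha subunit, with 51.8, tba-7, an alpha tubulin, with 52.9, and ptrn-1 with 50.3. Genes of mitochondria and metabolism were ddp-1 with 51.8, cox-5B, a cytochrome c oxidase subunit, with 51.3, ugt-64 with 52.04 and ZK484.6, of the phosphoglycerate mutase family, with 50.5. Also among the 25 were vig-1 with 53.04 and gtsf-1 with 51.3, protein-coding genes with RNA-related products. The sorting genes vps-37 and lgg-2 had 50.7 and 49.8, and the ribosomal protein gene rpl-11.2 had 49.98. The remaining ones were Y39B6A.43, F20D1.3 and famh-136 with 51.8, 51.4 and 49.98. Of the 25 regions, 16 had a q-value of 0.05 or less in replicate 1, 6 in replicate 2 and 4 in neither.

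The values on either side of the selection were close. The weakest single-gene promoter peaks that passed IDR were at C46F11.4 with a pooled signal of 56.9, C34C12.8 with 57.8, tba-2 with 57.8, Y54G11A.2 with 58.6 and T09F3.4 with 58.6. The strongest regions left out for lacking 1 replicate were at miz-1 with 50.1 and gst-5 with 45.6, both in replicate 1 only, and at the nuclear receptor gene nhr-48 with 45.7, in replicate 2 only. The nuclear receptor gene nhr-57 with 45.5 and the nuclear pore gene npp-8 with 44.7 were also in replicate 1 only. At the low end, the 5 weakest of the 520 were at F35D2.3 with a pooled signal of 16.05, rfip-1 with 15.8, ZK593.3 with 15.7, the SUMO-conjugating enzyme gene ubc-9 with 14.2 and lgg-2 with 14.02. The lgg-2 region stood 201 bp from the stronger one of the same gene and fell in the same replicate regions, with 24.8 in replicate 1 and 16.8 in replicate 2 for both. In all, 10 of the 520 shared their replicate 1 region with another of them and 10 shared their replicate 2 region.

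The 520 regions had 500 nearest genes, of which 20 had 2 regions and 0 had 3 or more. In 8 of the 20 genes the pair of regions overlapped, with summits 199 to 228 bp apart, as at let-526, lgg-2, the electron transfer gene let-721, the phosphatase gene vhp-1 and the potassium channel gene unc-103. The other 12 genes had regions at separate places. The AP-1 factor gene jun-1 had 1 with a pooled signal of 41.3 downstream of a 5' end and 1 with 39.2 upstream of another, their summits 14577 bp apart. The receptor tyrosine kinase gene cam-1 had upstream regions 10583 bp apart with 27.5 and 25.6, and the ankyrin gene unc-44 had upstream regions 7617 bp apart with 35.3 and 22.7.

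The summits of the 520 regions lay upstream of the nearest 5' end more often than those of the other promoter regions. An upstream summit was found in 376 of 520 (72.3%, Wilson 95% interval 68.3 to 75.98), against 5913 of 11247 (52.6%, 51.7 to 53.5), with an odds ratio of 2.36 (1.94 to 2.86, two-sided Fisher's exact p = 3.14e-19). The single-gene promoter peaks that passed IDR were more often upstream still, in 50 of 55 (90.9%). The odds ratio of the 520 against them was 0.261 (0.102 to 0.668). Those peaks all had a higher pooled signal than any of the 520 (lowest 56.9, against a highest of 56.1), so this comparison is a description. Summits also lay within 250 bp of the 5' end in 42.9% of the 520, against 29.7% of the other promoter regions (odds ratio 1.77, 1.48 to 2.12, Fisher's exact p = 6.20e-10). The median distance to the 5' end was 294.5 bp, against 435 bp. Most of the difference stood between 100 and 300 bp upstream, where bins of 100 bp held 14.2% and 14.8% of the 520, against 6.75% and 6.62% of the other promoter regions. Regions are positions in 1 genome and not replicates of a condition, and these intervals cover counting error only.

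Signal was used by the selection, and both differences depended on the signal of the regions compared. Against other promoter regions at or above the weakest of the 520 the odds ratio was 2.27 for an upstream summit and 1.76 for one within 250 bp. Against those among the 5000 strongest regions below IDR it was 1.70 (Fisher's exact p = 1.29e-06) and 1.43. Among regions with a pooled signal at or above the median of the 520, an upstream summit was found in 212 of 260 (81.5%), against 74 of 95 of the other promoter regions (77.9%; odds ratio 1.25, 0.704 to 2.23, Fisher's exact p = 0.451). At that level a summit within 250 bp was found in 43.8% against 45.3% (odds ratio 0.944, 0.589 to 1.51). When regions in 1 named list were taken in place of both, the upstream odds ratio was 1.42 without replicate 1 (1535 regions) and 1.23 without replicate 2 (4100 regions).

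**Figure D2:**
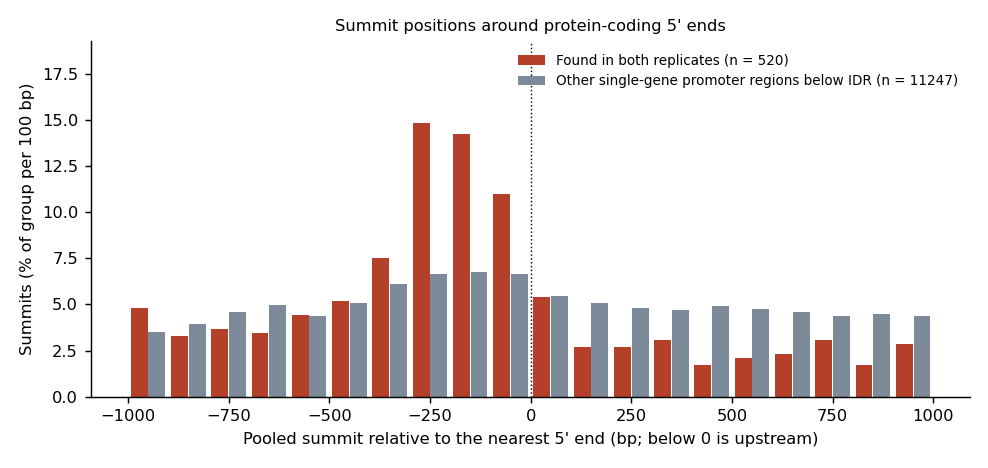
Share of pooled summits per 100 bp by position relative to the nearest protein-coding 5' end (in bp, below 0 upstream), for the 520 regions found in both replicates and the 11247 other single-gene promoter regions below IDR. The 520 stand highest between 300 and 100 bp upstream, at 14.8% and 14.2% per bin.

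In 4 groups of 130 regions by pooled signal, the share of upstream summits was 86.2% in the strongest group, then 76.9%, 64.6% and 61.5% in the weakest. GC content within 100 bp of the summit had medians of 42.04%, 38.8%, 36.8% and 35.8% in the same order, and over all 520 the correlation of pooled signal with GC was r = 0.324 (Spearman's rho 0.324). The share within 250 bp of the 5' end stayed between 39.2% and 44.6% in the 4 groups. Over all 520 the median GC was 38.3%, against 35.8% in their flank windows, 34.8% in the other promoter regions and 40.8% in the 55 IDR peaks.

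By annotation, 293 of the 520 summits (56.3%) were intergenic, and 143 (27.5%) lay in an intron, 35 in a coding exon and 21 in another exon part of the nearest gene. An upstream summit lay inside the nearest gene in 61 regions, since another transcript of that gene begins further up. In 24 an upstream summit lay in a different protein-coding gene, and in 33 the 5' ends of more than 1 gene were within 1000 bp. The median distance to the nearest IDR summit was 147449 bp. An IDR summit lay within 1000 bp of 4 regions, those of the 14-3-3 gene ftt-2 at 205 bp, W01D2.3 at 216 bp, Y73F8A.27 at 921 bp and the zinc finger gene zfp-1 at 963 bp. Other RNA genes lay within 200 bp of 56 summits, 52 of them near a gene of the ncRNA class, with 1 miRNA gene beside Y53G8AL.4, 1 snRNA gene beside cpz-1 and antisense RNA genes beside both let-526 regions.

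Chromosome II had 6.54 per Mb, I 5.90, III 5.88, X 5.02, V 4.40 and IV 3.94, against 97.7 to 118.5 per Mb for the other promoter regions. Chromosome IV held 13.3% of the 520, against 16.8% of the other promoter regions, and no test was run over all chromosomes. The share on X was 17.1%, against 15.4% of the other promoter regions (odds ratio 1.13, 0.898 to 1.43, Fisher's exact p = 0.292), and the share of autosomal summits in the middle of 3 equal parts of the chromosome was 35.7%, against 33.9% (odds ratio 1.08, 0.886 to 1.33, Fisher's exact p = 0.436). Neither difference passed the test.

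The word GAGAGA was more frequent at the summits of the 520 regions than beside them. For each of 8 motifs, the 201 bp around the summit were set against 2 windows from 500 to 700 bp to either side, on both strands. Adjustment was by Benjamini-Hochberg over the 8. The test was unpaired and treated all windows as independent, though summit and flank windows came from the same regions. GAGAGA was present at 135 of 520 summits (25.96%) and in 106 of 1040 flank windows (10.2%), with an odds ratio of 3.09 (2.33 to 4.09, adjusted Fisher's exact p = 2.81e-14). At the summits of the other promoter regions it was present in 13.4% (odds ratio 2.27, 1.85 to 2.78, adjusted Fisher's exact p = 8.47e-13), and at the 55 IDR peaks in 32.7%. Read on the strand of the nearest gene, the letters were TCTCTC only in 82 of the 135 regions, GAGAGA only in 42 and both in 11. In the 4 groups by pooled signal the share was 43.8%, 23.8%, 19.2% and 16.9%, from the strongest to the weakest. Among regions at or above the median signal of the 520 it was 33.8% of 260, against 36.8% of 95 other promoter regions (odds ratio 0.877, 0.538 to 1.43, unadjusted Fisher's exact p = 0.616). Among summits and flanks between the GC quartiles of the 520 the odds ratio was 2.69 (1.79 to 4.03, adjusted Fisher's exact p = 1.26e-05), and the adjusted p over all alternatives ran from 7.76e-23 to 0.921. Without replicate 1 the odds ratio against flanks was 1.77, and without replicate 2 it was 1.74. The 8 motifs were chosen with earlier results of these data known, and the adjustment does not cover that choice.

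**Figure D3:**
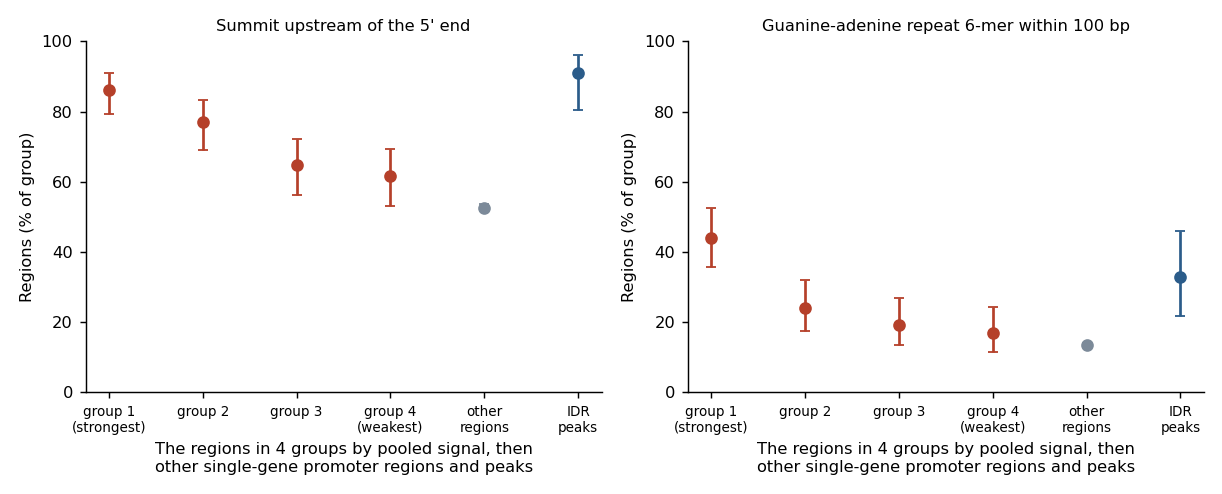
Share of regions with a summit upstream of the 5' end (left) and with the guanine-adenine repeat 6-mer within 100 bp of the summit (right), in percent with Wilson 95% intervals, for the 520 regions in 4 groups by pooled signal, then for the 11247 other promoter regions and the 55 single-gene promoter peaks that passed IDR. The left shares run from 86.2% in the strongest group to 61.5% in the weakest, and the right ones from 43.8% to 16.9%.

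TTTCAG, the letters that end most C. elegans introns, was less frequent at summits (28.7%) than in flanks (36.3%; odds ratio 0.703, 0.560 to 0.884, adjusted Fisher's exact p = 0.0104). Between the GC quartiles the odds ratio was 0.711 (0.515 to 0.981) with fewer windows, 279 summits against 424 flanks, and the call was lost there (adjusted Fisher's exact p = 0.172), within a range of 0.000326 to 0.921 over all alternatives. The nuclear receptor core site AGGTCA was present at 29 summits (5.58%) and in 5.77% of flank windows (odds ratio 0.965, 0.611 to 1.52, adjusted Fisher's exact p = 1), and its extended form AAGGTCA at 12 summits (2.31%) and in 1.83% of flanks (odds ratio 1.27, 0.611 to 2.64). In the other promoter regions AGGTCA was present in 4.94% and AAGGTCA in 1.503%. Regions with AAGGTCA included those of tba-7 and of the proteasome lid gene rpn-11, the homeobox gene ceh-20 and the short-chain dehydrogenase gene dhs-9. The GATA-type word TGATAA, the E-box CACGTG, the TATA-box word TATAAA and the B box word GGTTCGA did not pass the test either. Every AAGGTCA holds an AGGTCA, so those counts overlap.

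A scan of all 2080 words of 6 letters, with both strands counted as 1 and made after the 8 motifs were seen, called 126 words (6.06%) higher at summits and 61 (2.93%) lower, by Fisher's exact test with Benjamini-Hochberg adjustment over the 2080. By p-value GAGAGA came first, followed by GAGAAA (44.04% against 25.1% of flanks), AGAGAG (23.1% against 8.94%), AGAGAC (19.6% against 6.92%, odds ratio 3.28), ACGCAG (15.8% against 4.62%, odds ratio 3.87) and ACACAC (19.6% against 7.02%). GCGCAC stood at 10.2% against 2.21% (odds ratio 5.02). Of the 126 words 57 held a CG, against 604 of all 2080. In 72 of the 126, 4 or more letters were G or C, and in 42 of the 61 lower words 2 or fewer were. Median GC was 38.3% at the summits and 35.8% in the flanks. It was not matched in the scan, and its part in these calls was not tested. Words 1 to 3 overlap in the sequences printed for ugt-64 and, on the opposite strand, for sti-1. The longer word GAGACGCA was present at 43 of 520 summits (8.27%), 1.35% of flank windows, 2.09% of the other promoter regions and 11 of the 55 IDR peaks. At least 1 of the words 1 to 3 or GAGAGA was present at 220 of the 520 summits (42.3%), against 20% of flank windows, 22.99% of the other promoter regions and 56.4% of the IDR peaks. These words were picked for their counts, so the shares are a description.

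**Figure D4:**
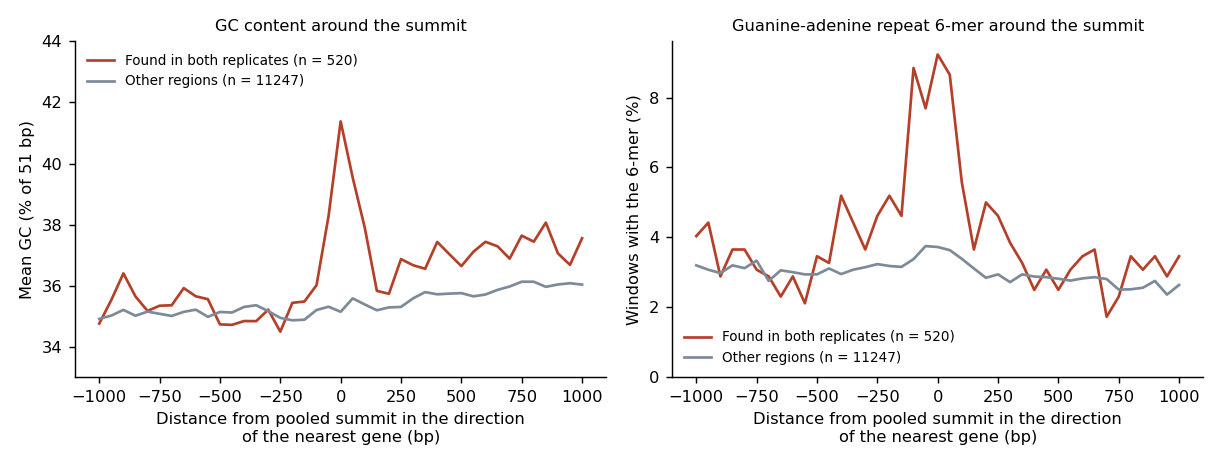
Mean GC content (left, percent of 51 bp) and share of 51 bp windows with the guanine-adenine repeat 6-mer (right, percent) by distance from the pooled summit in the direction of the nearest gene, for the 520 regions and the 11247 other promoter regions. At the summit the 520 reach 41.4% GC, against 35.1%, and 9.23% of windows, against 3.73%.

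The share of genes with one of these regions was highest in the lists of proteasome and CDC-48, cytosolic ribosomal protein, respiration and chaperone genes. It was low in the chemoreceptor list. Gene groups were read from symbols, and counts are of genes with at least 1 of the 520 regions among genes nearest to any single-gene promoter region below IDR. Over all such genes this was 500 of 8294 (6.03%), with a median pooled signal of 32.1 for the regions. The lists were chosen with earlier results of these data known, and their shares are a description with no test.

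In translation and protein folding, 7 of 25 cytosolic ribosomal protein genes (28%) had a region, all 7 upstream of the 5' end, at a median pooled signal of 38.8. That of rpl-11.2 had 34.4 in replicate 1 and 18.3 in replicate 2, that of rps-17 had 48.1 pooled, with 28.8 in replicate 1 and 17.5 in replicate 2, and those of rpl-14 and rpl-32 had 43.3 and 38.8 pooled. Of these 4, the first 3 were the ones with a q-value of 0.05 or less in replicate 1. Of the chaperone genes 9 of 39 (23.1%) had one, led by sti-1 with 48.9, the Hsp70 genes hsp-1 with 45.5 and hsp-3 with 44.2, and the disulfide isomerase gene pdi-6 with 41.9. Of 16 translation factor genes 2 had a region, the cap-binding protein gene ife-4 with 33.2 and eif-3.J with 28.7, and of 14 aminoacyl-tRNA synthetase genes 1 did.

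Protein turnover and sorting genes stood beside them. Of the proteasome and CDC-48 genes 4 of 9 (44.4%) had a region, at rpn-11 with 38.9, the ubiquitin ligase gene ufd-2 with 35.04, the base ATPase gene rpt-1 with 33.7 and the core subunit gene pbs-3 with 30.3. Of 50 ubiquitin and SUMO genes 3 (6%) had one, ubxn-3 with 47.6, the cullin partner gene rbx-1 with 34.8 and ubc-9 with 14.2. Vesicle traffic and lysosome genes had 19 regions at 18 of 144 genes (12.5%), at a median pooled signal of 39.5. They were led by vps-37 of the ESCRT complex, the autophagy genes lgg-2 and atg-18 with 49.8 and 47.7, and vps-28, also of ESCRT, with 43.7. The atg-18 region was at 15.03 in replicate 1 and 27.9 in replicate 2, while the stronger lgg-2 region was at 24.8 in replicate 1 and 16.8 in replicate 2.

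Mitochondrial respiration genes had 4 of 17 (23.5%), all upstream. These were cox-5B with 51.3, the complex I gene nduf-11 with 48.8, cox-5A with 47.4 and the ATP synthase gene asb-2 with 33.5. Of 29 mitochondrial ribosomal protein genes 0 had a region. Other metabolic enzymes had 7 of 62 (11.3%), with sod-1 at 55.4, the succinate-CoA ligase gene suca-1 at 39.8, the sugar transferase gene ogt-1 at 34.6 and the isocitrate dehydrogenase gene idh-1 at 32.7. Lipid metabolism genes had 8 of 95 (8.42%), with cpt-2 at 37.7, dhs-9 at 33.9, the phosphatidylcholine synthesis gene pcyt-1 at 31.9 and cpt-4 at 29.1. Detoxification genes had 5 of 102 (4.90%), with ugt-64 at 52.04 above gst-19 and ugt-50 at 31.1 and 31.04 and cyp-29A4 at 21.8. Solute transporters had 5 of 103 (4.85%), with slc-46A at 46.2, the sodium/proton exchanger gene nhx-5 at 36.3, the divalent metal transporter gene smf-1 at 28.7 and slc-17.1 at 27.4.

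Nuclear hormone receptor genes themselves had 17 of 141 (12.1%), at a median pooled signal of 31.6, with 8 of the 17 summits upstream. After nhr-1 came nhr-34 with 46.2 pooled, 21.3 in replicate 1 and 24.2 in replicate 2. The region of nhr-66 had 44.8 pooled, with 25.3 in replicate 1 and 19.03 in replicate 2, and that of nhr-122 had 43.5 pooled, with 27.3 in replicate 1 and 17.2 in replicate 2. Other DNA-binding factor families had 10 of 103 (9.71%), led by crh-1, the CREB homolog, with 44.05, the C/EBP gene cebp-2 with 43.8, the zinc finger gene ztf-7 with 41.6 and the bZIP gene zip-3 with 41.6. Homeobox genes had 4 of 52 (7.69%), with ceh-37 at 34.9, zfh-2 at 34.1, the Meis-family gene unc-62 at 32.2 and its Pbx-family partner ceh-20 at 26.3.

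Chromatin and transcription machinery genes had 11 of 93 (11.8%), with mdt-26, the bromodomain gene bet-2 at 44.3, the RNA polymerase II subunit gene rpb-11 at 38.1 and the histone methyltransferase gene set-4 at 35.96. Histone genes had 2 of 12, both of the replacement type, his-71 with 31.7 and his-72 with 19.8. The list of RNA processing genes had 7 of 42 (16.7%). They were led by the splicing regulator gene asd-2 at 46.7 and the cleavage factor gene cpsf-1 at 44.5. Then came sym-4, in this list by its symbol only, at 34.1 and the branchpoint-binding gene sfa-1 at 32.9. Nuclear pore and transport genes had 4 of 24 (16.7%), with the importin gene imb-3 at 43.8, the nuclear anchorage gene anc-1 at 43.1, npp-13 at 32.03 and the nuclear migration gene unc-83 at 22.1. Cell cycle and chromosome genes had 8 of 74 (10.8%), all upstream, with smc-5 at 41.4, the BRCA1 homolog gene brc-1 at 39.1, zyg-11 at 35.4 and lin-9, of the DREAM complex, at 34.2. Germ line and small RNA genes had 4 of 69 (5.80%), the Pumilio-family gene puf-9 with 41.3, the sperm gene spe-38 with 40.9, the heterochronic gene lin-28 with 30.8 and the calpain gene tra-3 with 28.7.

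Signalling genes had 19 of 221 (8.60%), led by mrck-1, egl-30, ftt-2 with 44.1 and the beta-catenin gene wrm-1 with 41.4. The ftt-2 region had 31.5 in replicate 1 and 14.5 in replicate 2. Cytoskeleton, muscle and adhesion genes had 18 of 161 (11.2%), led by tba-7, the tetraspanin gene tsp-21 with 43.6, the kinesin light chain gene klc-2 with 40.5 and the kinesin gene klp-13 with 40.4.

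Ion channel, receptor and synaptic genes had 7 of 232 (3.02%), with the innexin gene inx-13 at 46.4, the potassium channel gene twk-22 at 32.3, acd-2 at 29.01 and syd-1 at 26.8. Chemoreceptor genes had 4 of 438 (0.913%), srx-96 with 33.5, srbc-58 with 28.6, srbc-41 with 24.9 and sre-4 with 23.9, and 1 of these 4 summits was upstream. F-box, BTB, MATH and lectin genes had 6 of 182 (3.30%), with fbxc-36 at 38.7, clec-140 at 29.3, clec-222 at 25.5 and clec-90 at 25.2. Neuropeptide and insulin genes had 2 of 50 (4%), nlp-82 with 39.9 and flp-18 with 35.7, innate immunity genes 2 of 41 (4.88%), scl-17 with 34.5 and cnc-9 with 26.98, and collagen genes 1 of 47. Of 12 intestine marker genes 0 had a region.

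**Figure D5:**
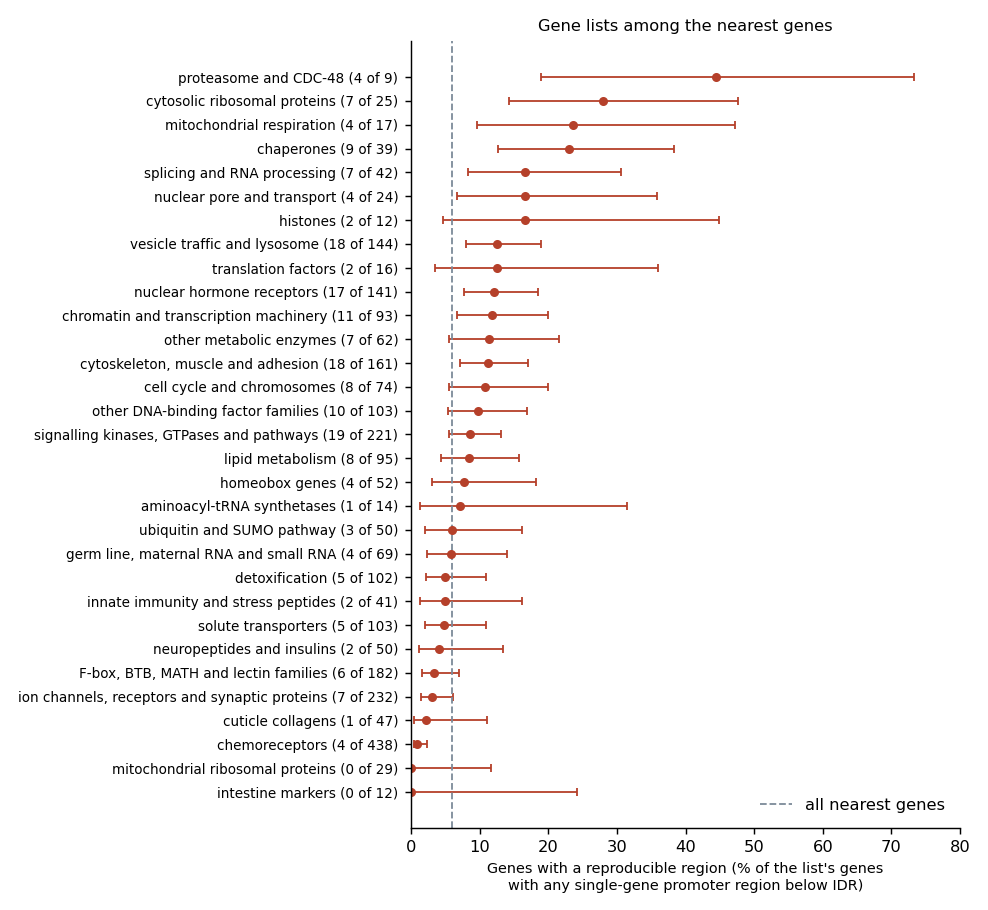
Share of each gene list's genes with 1 of the 520 regions (points, percent, with Wilson 95% intervals for counting error only), of the list's genes with any single-gene promoter region below IDR, whose numbers stand in brackets. The dashed line marks 6.03%, the share over all 8294 nearest genes. The lists run from 44.4% for proteasome and CDC-48 genes to 0 for mitochondrial ribosomal protein genes and intestine markers.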

How the data were processed

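Per the labels' text records, the authors called regions on each replicate and on both together against a control, with a relaxed setting that keeps background as input for IDR, and deposited the lists on builds ce11 and ce10. Neither aligner nor peak caller is named, and the version and cutoff of IDR are likewise not given in the sources used here. The deposited lists hold a signal value per region (the authors' enrichment measure, compared within 1 list only) and, in the replicate lists, q-values as −log10. The corresponding column deposited in the pooled and IDR lists falls below 0 and was treated as a score that supports no result. Only the ce11 lists were used, with the WBcel235 genome and Ensembl release 115. RefSeq gave gene products. No per-sample column was left unmatched.

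The members, gene lists and motifs were chosen with earlier results of these data known, and list patterns that had matched unrelated symbols were corrected after a first count. Shares were compared by two-sided Fisher's exact tests with Woolf odds ratio intervals and Wilson intervals (95%), adjusted by Benjamini-Hochberg across motifs or 6-mers, in Python 3.11.15 with scipy 1.17.1 and numpy 2.4.6, tested on simulated data. No read totals are given, so depth and its precision are unknown. Named genes are the nearest genes of the 25 strongest and 5 weakest members, up to 4 of each list with 2 or more members, and genes with 3 or more regions. Genes named for values on either side of the selection, for 2 regions, for a near IDR summit or for a motif were chosen after their values were seen. Alternatives varied distances, thresholds, comparison regions, windows and replicates.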

Additional observations from a re-analysis of the deposited data

How the results depend on the processing

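The number of regions was 520. It was 1 with a q-value of 0.05 or less in both replicates, where no share was computed, 260 at or above the median signal, and 1535 to 4100 without 1 replicate, by construction of those settings. The upstream odds ratio (2.36) kept its direction in all 12 alternatives. It lost its call at or above the median signal (1.25) and was 1.23 to 1.42 without 1 replicate. The odds ratio for summits within 250 bp (1.77) turned to 0.944 at or above the median signal. Of the shares that did not pass, that on X turned to 0.839 at that signal, and that in the middle part of autosomes to 0.739 there, 0.975 with replicate summits within 100 bp and 0.946 against the 5000 strongest, and ran from 1.03 to 1.18 without 1 replicate, passing at 1.18. Of 8 motifs 2 passed, 1 within the GC quartiles (TTTCAG lost its call at an odds ratio of 0.711, against 0.703, with fewer windows) and 0 between summits of both groups at or above the median signal (added after seeing the data), where GAGAGA turned to 0.877, AGGTCA to 1.90, TGATAA to 1.24, CACGTG to 1.26 and TATAAA to 1.502. Of motifs that did not pass, AGGTCA also turned to 1.41 at or above the median signal, 1.28 in 50 bp windows, 1.14 against other summits and ran from 0.875 to 1.09 without 1 replicate. AAGGTCA turned to 0.855 with close replicate summits, 0.756 within the GC quartiles and ran from 0.940 to 1.08 without 1 replicate. CACGTG turned to 1.06 within 500 bp, 1.15 with close replicate summits, 1.39 at or above the median signal, 1.26 against other summits and 1.09 to 1.18 without 1 replicate, and TATAAA to 1.34 within the GC quartiles. GGTTCGA turned to 2.04 with tRNA and snoRNA regions kept, by construction. For the others the cause was not tested. No comparison between groups of libraries was possible because both libraries belong to 1 group. Summit and flank windows of the same region were compared without pairing, and a paired test was not run. The GC-matched and 1-region-per-gene settings were also added after seeing the data.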
